A study of Homo sapiens with 24 samples.

Results

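Lysosome and autophagy genes were followed in human multiple myeloma cell lines given a ribosomal RNA synthesis inhibitor, a histone deacetylase inhibitor or both. The set held 47 genes, chosen as the rows of the deposited count tables whose NCBI Gene ID belongs to a list of 47 symbols, out of 28395 rows in each table. The lines were JJN3, which the labels call p53-null, and MM1.S, which they call p53-WT. In each line, 3 libraries came from cells given 500 nM CX-5461, 3 from cells given 50 nM panobinostat, 3 from cells given both drugs at those doses and 3 from cells given vehicle, all for 24 h. The titles and treatment protocols name CX-5461 for the 3 JJN3 libraries given that drug alone, while their treatment field reads CX-5461, CX-5462 and CX-5463 in replicates 1, 2 and 3. They were grouped by title, and whether the field holds a numbering slip was not tested. CX-5461 blocks RNA polymerase I, the enzyme that makes ribosomal RNA. Panobinostat blocks histone deacetylases. RNA was read by 3′ RNA sequencing, which counts reads near the end of each transcript. The labels do not say that the 3 libraries of a group came from separate cultures, so the p-values measure the spread between these libraries, which may be technical. Each line is a single cell line in its own count table, so line, p53 status and count table cannot be told apart.

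Autophagy delivers parts of the cell to the lysosome for breakdown. Proteins of the ULK1 and class III phosphatidylinositol 3-kinase complexes start an autophagosome, and the conjugation enzymes attach ATG8 proteins (the LC3 and GABARAP families) to its membrane. Cargo receptors such as p62, the product of SQSTM1, bind ubiquitin-tagged cargo and ATG8 proteins together. The lysosome receives the cargo, is acidified by the vacuolar proton pump (V-ATPase) and degrades it with cathepsins, glycosidases and sulfatases. TFEB, TFE3 and MITF are related transcription factors that bind the motif CACGTG in promoters of many lysosomal genes. This motif is the core of a longer site known as the CLEAR element. The factors are controlled in large part by mTORC1, which keeps them in the cytoplasm. Plasma cells make large amounts of antibody and rely on proteasomes and autophagy to clear surplus protein.

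The promoters that hold this motif are shown because it is one that the transcription factors of the set can bind. Whether they act on these genes here was not tested. The motif searched was CACGTG, which reads the same on both strands, in windows of 250 bases before to 50 bases after each start site in the RefSeq promoter table (build GRCh38.p14). A window was found for 34 of the 47 genes, and 9 of those 34 (26.5%) held the motif, against 2396 of 27305 genes (8.77%) in the whole table. Of the 34, 6 (17.6%) held at least 2 copies in 1 window, against 216 genes (0.791%) in the whole table. The members without a window were lysosomal genes, apart from MAP1LC3A and UVRAG. All 9 also held the longer form TCACGTG or its complement CACGTGA, which overlaps CACGTG and was present in 4.49% of genes in the table. The 9 were LAMP1, MCOLN1, CLN3, CTSA, CTSD, CTSF, GAA, NEU1 and ATP6V0D1, all of them lysosomal, and no window of a transcription factor, cargo receptor, ATG8, initiation or conjugation gene held it. Below, capitals mark CACGTG in the promoter with the most copies and in 4 promoters of genes that moved with the drugs. The windows are LAMP1 on the plus strand at chr13:113296989-113297288, MCOLN1 on the plus strand at chr19:7522374-7522673, CTSF on the minus strand at chr11:66568557-66568856, GAA on the plus strand at chr17:80101331-80101630 and CLN3 on the minus strand at chr16:28492025-28492324.
LAMP1: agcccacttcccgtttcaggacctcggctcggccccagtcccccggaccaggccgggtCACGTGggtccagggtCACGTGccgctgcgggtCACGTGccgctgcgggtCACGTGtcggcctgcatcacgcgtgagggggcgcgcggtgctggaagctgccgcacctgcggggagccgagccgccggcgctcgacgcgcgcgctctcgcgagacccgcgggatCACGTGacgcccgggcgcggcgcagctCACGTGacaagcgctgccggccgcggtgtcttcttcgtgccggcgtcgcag
MCOLN1: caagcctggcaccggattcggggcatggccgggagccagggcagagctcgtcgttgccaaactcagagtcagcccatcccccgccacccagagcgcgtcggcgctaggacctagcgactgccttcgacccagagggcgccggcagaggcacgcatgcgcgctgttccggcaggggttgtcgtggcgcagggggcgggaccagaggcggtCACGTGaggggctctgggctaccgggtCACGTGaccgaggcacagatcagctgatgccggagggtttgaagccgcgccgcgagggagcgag
CTSF: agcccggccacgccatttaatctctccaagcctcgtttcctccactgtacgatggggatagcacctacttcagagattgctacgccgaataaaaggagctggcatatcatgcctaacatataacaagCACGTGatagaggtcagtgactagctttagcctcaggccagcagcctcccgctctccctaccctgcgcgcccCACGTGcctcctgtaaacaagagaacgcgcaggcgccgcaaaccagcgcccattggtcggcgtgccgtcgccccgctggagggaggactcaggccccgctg
GAA: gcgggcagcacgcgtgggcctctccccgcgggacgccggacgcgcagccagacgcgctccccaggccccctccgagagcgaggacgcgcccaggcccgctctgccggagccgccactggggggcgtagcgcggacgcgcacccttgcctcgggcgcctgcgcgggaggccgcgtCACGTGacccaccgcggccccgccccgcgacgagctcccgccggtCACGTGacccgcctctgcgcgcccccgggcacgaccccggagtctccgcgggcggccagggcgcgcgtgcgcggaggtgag
CLN3: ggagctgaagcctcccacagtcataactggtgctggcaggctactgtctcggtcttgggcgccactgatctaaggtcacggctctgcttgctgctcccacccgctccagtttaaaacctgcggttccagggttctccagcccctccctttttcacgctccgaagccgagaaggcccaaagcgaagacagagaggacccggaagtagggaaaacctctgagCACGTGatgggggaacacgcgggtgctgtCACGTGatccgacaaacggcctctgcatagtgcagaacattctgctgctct
The copies in LAMP1 began 192, 176, 159, 142, 28 and 1 bases before the start site. Those of MCOLN1 began 41 and 14 bases before it, those of CTSF 123 and 51, those of GAA 76 and 31, and those of CLN3 30 and 1. A match describes these letters and does not show that a factor bound there.

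Each library held 4751893 to 7305069 gene counts. Levels are given as CPM, the counts of a gene scaled to library size by the TMM method over all 24 libraries. All 8 plasma cell markers had counts in every group, though in JJN3 CD38 had only 1 to 3 counts a group and SLAMF7 averaged at most 5.78 CPM. The summed level of the 8 was 1303 to 1447 CPM with CX-5461, 905 to 1004 with panobinostat, 584 to 604 with both and 1491 to 1598 with vehicle in JJN3. In MM1.S it was 4968 to 5134 CPM with CX-5461, 497 to 694 with panobinostat, 413 to 472 with both and 6192 to 6558 with vehicle, so it moved with panobinostat in both lines. PRDM1 did not follow the sum in JJN3, at a mean of 62.5 CPM with panobinostat, 65 with both and 47.1 with vehicle. Markers of T cells summed to at most 2.99 CPM in any library, with CD3D at 0 throughout. Those of myeloid cells reached 8.56 CPM, in MM1.S with CX-5461 (ITGAM), and at most 2.55 CPM elsewhere. Epithelial markers reached 21.7 CPM in JJN3 (EPCAM) and 5.98 CPM in MM1.S, and fibroblast markers reached 9.29 CPM in JJN3 and 23.9 CPM in MM1.S with both drugs (COL1A1), against at most 2.43 CPM in MM1.S with vehicle. The part of these markers in the results was not tested. In JJN3, libraries with the same replicate number deviated together. Values of the members with the replicate number as a block are therefore given where they change a call or a count by over 1.5 times. Genes outside the 47 were read without the block.

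Panobinostat moved the set more than CX-5461 did, and raised more members than it lowered in both lines. A member is called higher or lower at an adjusted p under 0.05, from edgeR's quasi-likelihood test over all genes with Benjamini-Hochberg adjustment. Of 44 members tested in JJN3, 15 were higher and 1 lower with panobinostat (34.1% and 2.27%), against 15% and 10.9% of all genes tested. With both drugs, 16 were higher and 4 lower (36.4% and 9.09%), against 21% and 18.2% of all genes. Of 44 members tested in MM1.S, 25 were higher and 6 lower with panobinostat (56.8% and 13.6%), against 36.9% and 32.9% of all genes (69.8% in either direction). With both drugs 27 were higher and 5 lower (61.4% and 11.4%), against 37% and 33.2% of all genes. With scaling by library size alone, 22 were higher and 3 lower with both drugs in JJN3, against 25.8% and 13.5% of all genes. The groups given panobinostat and those given both drugs are set against the same vehicle libraries, so these comparisons are not independent. The median log2 fold change of the members was 0.24 with panobinostat and 0.32 with both in JJN3, and 0.46 and 0.43 in MM1.S, while the medians of all genes tested were between 0.00 and 0.07. In JJN3 the replicate block raised the called members to 25 with panobinostat (22 higher, 3 lower, against 22.4% and 19.5% of all genes under that rule, 41.9% in either direction). With both drugs it raised them to 31 (24 higher, 7 lower, against 27.6% and 25.9%). The JJN3 panobinostat count was 8 without vehicle replicate 3, 10 without panobinostat replicate 1 and 10 without the 4 libraries of replicate 2. Of all genes, 19.3%, 16.8% and 25.4% were called in those fits, against 26% with every library. In these bulk samples, fewer cells with a transcript and less of it per cell cannot be told apart.

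CX-5461 alone called members in MM1.S and none in JJN3, where the treatment field of the libraries gives 3 compound numbers. In JJN3, 0 of 44 members and 0% of all genes were called by edgeR, with 4 members at an unadjusted p under 0.05. DESeq2, limma-voom and edgeR with the replicate block also called 0 members, the last against 1.38% of all genes. In MM1.S, 10 of 44 members were higher and 0 lower (22.7% and 0%), against 9.68% and 7.06% of all genes. The 10 were MITF, SQSTM1, GABARAPL1, MAP1LC3B, ULK1, ATG9B, CTSA, CTSB, CTSF and GAA. That count moved with single libraries. It was 3 without vehicle replicate 3, 5 without CX-5461 replicate 1 and 6 without vehicle replicate 2. Of all genes, 11.3%, 11% and 14.2% were called in those fits, against 16.7% with every library. Without panobinostat replicate 1 the count was 14, against 19.5% of all genes. It was 16 when libraries were scaled by their size alone, with 12.8% of all genes then higher and 4.23% lower. A direct test of the difference in the CX-5461 effect between the lines called 0 of 45 members, against 1.32% of all genes, with 7 at an unadjusted p under 0.05. With the replicate block it called SQSTM1 alone (-1.003 ± 0.22, edgeR adjusted p = 0.0145), against 4.52% of all genes.

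Together the 47 genes took a larger share of each library's counts where panobinostat was given. In JJN3 the share was 0.463 to 0.573% with CX-5461, 0.556 to 0.650% with panobinostat and 0.571 to 0.672% with both, against 0.448 to 0.527% with vehicle. In MM1.S it was 0.656 to 0.666% with CX-5461, 1.10 to 1.28% with panobinostat and 1.12 to 1.22% with both, against 0.542 to 0.573% with vehicle. The ranges with panobinostat and with both drugs lay above that with vehicle in each line. Much of the MM1.S difference lay in SQSTM1 and PSAP, which together took 0.572 to 0.751% with panobinostat and 0.603 to 0.718% with both, against 0.190 to 0.206% with vehicle. The other 45 genes took 0.513 to 0.526% with panobinostat and 0.507 to 0.523% with both, against 0.352 to 0.367% with vehicle. In JJN3 the other 45 took 0.380 to 0.418% with panobinostat and 0.420 to 0.460% with both, against 0.292 to 0.319% with vehicle, while SQSTM1 and PSAP overlapped between the groups. Not all members could be tested. NEU1, the lysosomal sialidase, had 0 counts in all 24 libraries, which allows at most 0.411 to 0.631 CPM in a library. CTSL, the protease cathepsin L, had 0 counts in all 12 JJN3 libraries, MAP1LC3A had at most 0.595 CPM in any library, and BECN1 had between 0.172 and 2 CPM and was tested in JJN3 and in the fit of all 24 libraries, but not in MM1.S. Limits from a count of 0 cover counting error only.

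**Figure D1:**
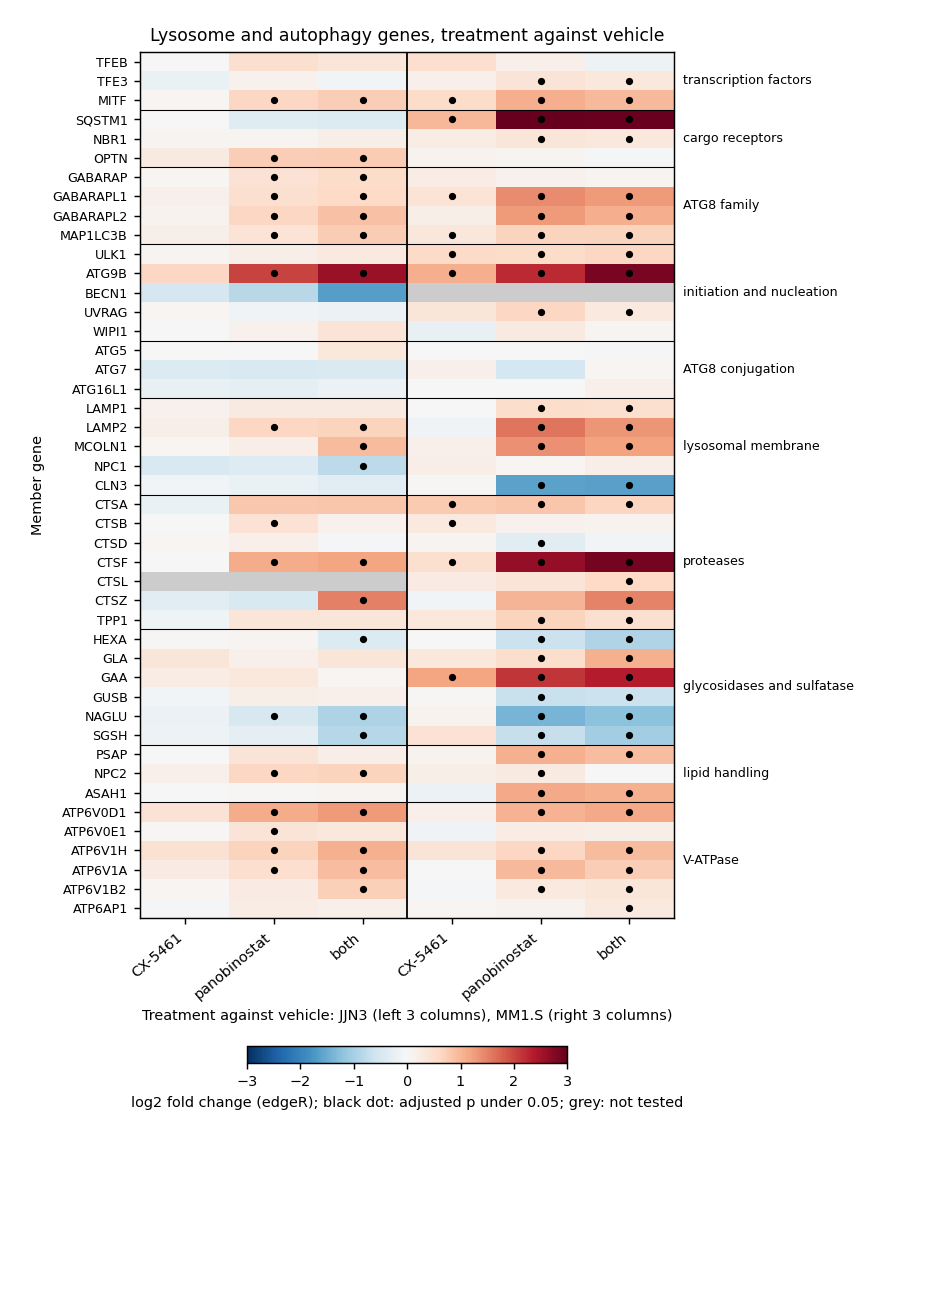
Log2 fold change against vehicle for 45 members (rows, by role) in the 6 treatment comparisons (columns), with JJN3 in the left 3 columns and MM1.S in the right 3. Red is higher and blue lower than vehicle, a black dot marks an edgeR adjusted p under 0.05 and grey marks a gene not tested; MM1.S with panobinostat holds 25 red and 6 blue dotted cells, and JJN3 with CX-5461 holds none.

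Among the transcription factors, MITF was the one called in both lines. MITF had 21.3, 18 and 23.3 CPM in the 3 JJN3 libraries with CX-5461, 33.2, 29.9 and 30.5 with panobinostat, 37.6, 31.5 and 31.3 with both and 20.4, 16.6 and 23.4 with vehicle. The MM1.S libraries had 15.4, 15.6 and 20.1 CPM with CX-5461, 27.3, 22 and 24.9 with panobinostat, 21.2, 23.7 and 23 with both and 12.2, 11.1 and 11.6 with vehicle. The panobinostat and both-drug libraries lay above every vehicle library in each line, and in MM1.S the CX-5461 libraries did too. The log2 fold change (± standard error) with panobinostat was 0.62 ± 0.16 in JJN3 (edgeR adjusted p = 0.00895) and 1.09 ± 0.16 in MM1.S (edgeR adjusted p = 1.37e-06). With both drugs it was 0.73 ± 0.16 in JJN3 and 0.97 ± 0.16 in MM1.S. The JJN3 panobinostat call was lost when vehicle replicate 2 was left out (0.48). The MM1.S rise with CX-5461 was 0.55 ± 0.16, and its call was lost when vehicle replicate 2, vehicle replicate 3 or CX-5461 replicate 3 was left out (0.52, 0.54 and 0.40).

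TFEB, the best known regulator of lysosomal genes, was not called against vehicle in either line by edgeR with group means. It had 13.1, 13.1 and 18.8 CPM with CX-5461, 22.8, 18.3 and 21.5 with panobinostat, 15.7, 22 and 20.3 with both and 14.8, 12.4 and 17 with vehicle in JJN3. Levels in MM1.S were 14.9, 15.5 and 15.8 CPM with CX-5461, 10.8, 13.4 and 12.1 with panobinostat, 8.8, 10.9 and 9.66 with both and 9.38, 16.2 and 7.76 with vehicle. The JJN3 panobinostat libraries all lay above the vehicle libraries, with a log2 fold change of 0.49 ± 0.20 (edgeR adjusted p = 0.0773) that passed with the replicate block (0.50 ± 0.17, edgeR adjusted p = 0.0156). In MM1.S the vehicle library of replicate 2 was higher than every treated one, and without it TFEB was called higher with CX-5461 (0.84) and with panobinostat (0.48). Limma-voom and the replicate block also called it higher there with CX-5461 (0.58 and 0.51). TFE3, a close relative of TFEB, had 32.5, 42.3 and 47.1 CPM with panobinostat, 33.9, 39.2 and 43.6 with both and 28.7, 33 and 32.4 with vehicle in MM1.S. It rose by 0.39 ± 0.14 with panobinostat and 0.32 ± 0.14 with both on the log2 scale (edgeR adjusted p = 0.0149 and 0.0395). The panobinostat call was lost when vehicle replicate 1 or panobinostat replicate 3 was left out (0.32 and 0.26), and the both-drug call in 8 of 12 fits without 1 library each (0.20 to 0.34). In JJN3, TFE3 had 55.9, 45.2 and 40.5 CPM with panobinostat, 36.4, 43.2 and 42.3 with both and 42.1, 39.3 and 47.2 with vehicle, which overlap.

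SQSTM1 showed the widest split between the lines. It encodes p62, the receptor that carries ubiquitinated cargo into autophagosomes. In JJN3 it had 612, 859.8 and 522 CPM with CX-5461, 472, 674 and 387 with panobinostat, 554, 572 and 367 with both and 558, 806 and 603 with vehicle. Its MM1.S values were 710.1, 723 and 752 CPM with CX-5461, 3604, 2024 and 3188 with panobinostat, 2661, 2394 and 3464 with both and 368, 354 and 372 with vehicle. Every treated MM1.S library lay above every MM1.S vehicle library, and the JJN3 groups overlapped, with replicate 2 highest in each. In MM1.S the log2 fold change was 1.000 ± 0.18 with CX-5461, 3.02 ± 0.19 with panobinostat and 2.97 ± 0.19 with both (edgeR adjusted p = 0.00128, 1.93e-09 and 2.16e-09). These 3 calls stayed in every alternative run. In JJN3 it was -0.37 ± 0.24 with panobinostat and -0.41 ± 0.24 with both and was not called (edgeR adjusted p = 0.274 and 0.192). With the replicate block both passed in the lower direction, at -0.40 ± 0.10 and -0.41 ± 0.10 (edgeR adjusted p = 0.00182 and 0.000874), and both also passed with no filter on low counts.

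In MM1.S the other cargo receptors moved less. In JJN3 OPTN was called higher, while SQSTM1 was not called by group means. NBR1, a receptor that works alongside p62, had 217, 203 and 205 CPM with CX-5461, 206, 207 and 218 with panobinostat, 218, 213 and 233 with both and 203, 191 and 194 with vehicle in JJN3, and was not called there. MM1.S cells had 139, 143 and 131 CPM with CX-5461, 131, 169.9 and 149.7 with panobinostat, 152, 141 and 146 with both and 114, 124 and 116 with vehicle. All 9 treated MM1.S libraries lay above the vehicle ones, and it rose by 0.36 ± 0.10 with panobinostat and 0.32 ± 0.10 with both (edgeR adjusted p = 0.00303 and 0.0069). OPTN encodes optineurin, a receptor for damaged mitochondria and bacteria. In JJN3 it averaged 126 ± 8.41 CPM with panobinostat and 128 ± 14.1 with both, against 75 ± 1.22 with vehicle (SD, n = 3 each). That is a rise of 0.74 ± 0.12 and 0.77 ± 0.12 (edgeR adjusted p = 0.000291 and 8.68e-05). In MM1.S it averaged 249.5 ± 26.2, 225 ± 5.83 and 237 ± 14 CPM with panobinostat, both and vehicle and was not called.

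Most ATG8 genes rose with panobinostat, apart from MAP1LC3A, which was too low to test, and GABARAP in MM1.S. Of 4 members tested, 4 were higher in JJN3 and 3 in MM1.S, with panobinostat and again with both drugs, against 15% and 21% of all genes higher in JJN3 and 36.9% and 37% in MM1.S. GABARAPL2, which encodes GATE-16, had 423, 422 and 369 CPM with CX-5461, 590.2, 593 and 558 with panobinostat, 755, 677 and 651 with both and 387, 397 and 344 with vehicle in JJN3. In MM1.S it had 199.6, 204 and 190.4 CPM with CX-5461, 458, 399.9 and 427 with panobinostat, 384, 367 and 364 with both and 184, 169 and 176 with vehicle. In JJN3 the both-drug libraries were the highest of the 4 groups, and in MM1.S the panobinostat libraries were. Its log2 fold change with panobinostat was 0.61 ± 0.11 in JJN3 and 1.29 ± 0.09 in MM1.S (edgeR adjusted p = 0.00069 and 4.24e-12). GABARAPL1, also a GABARAP-type ATG8, had 88.4, 85.9 and 75.4 CPM with CX-5461, 113, 104 and 99.5 with panobinostat, 109, 113 and 115 with both and 79.3, 76 and 67.7 with vehicle in JJN3. The MM1.S libraries had 43.4, 44.2 and 41.7 CPM with CX-5461, 72.5, 86.6 and 98.9 with panobinostat, 73.2, 85.6 and 73.8 with both and 33.5, 32.1 and 31.4 with vehicle. Panobinostat and both-drug libraries lay above vehicle in each line, with a log2 fold change with panobinostat of 0.49 ± 0.12 in JJN3 and 1.42 ± 0.12 in MM1.S (edgeR adjusted p = 0.00516 and 1.20e-10). The MM1.S rise with CX-5461 was 0.42 ± 0.12, and its call was lost in 4 of 12 fits without 1 library each (0.39 to 0.41).

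MAP1LC3B encodes LC3B, the usual protein marker of autophagosomes. It had 84.1, 104 and 73.1 CPM with CX-5461, 108, 106 and 94.9 with panobinostat, 135, 142 and 119 with both and 75.1, 76.9 and 79.8 with vehicle in JJN3. Levels in MM1.S were 71, 79.8 and 68.9 CPM with CX-5461, 87.4, 99.97 and 86.6 with panobinostat, 89.9, 102 and 82.9 with both and 57, 62.5 and 54 with vehicle. All treated MM1.S libraries lay above the vehicle ones. With both drugs it rose by 0.76 ± 0.13 in JJN3 and 0.68 ± 0.11 in MM1.S (edgeR adjusted p = 0.000248 and 6.20e-06). The JJN3 rise with panobinostat alone (0.40 ± 0.13) lost its call in 5 of 12 fits without 1 library each (0.35 to 0.42), and the MM1.S rise with CX-5461 (0.35 ± 0.11) in 5 of 12 fits without 1 library each (0.27 to 0.38). MAP1LC3B2, a near-identical copy whose reads the counting could have split, had at most 4.98 CPM. GABARAP had 107, 89.5 and 72.9 CPM with panobinostat, 102, 94.6 and 92 with both and 65.9, 65.9 and 64.3 with vehicle in JJN3. It rose there by 0.44 ± 0.13 and 0.55 ± 0.13 (edgeR adjusted p = 0.0189 and 0.00289), and the panobinostat call was lost when vehicle replicate 1, vehicle replicate 3 or panobinostat replicate 1 was left out (0.43, 0.42 and 0.29). Its MM1.S values were 239, 236 and 245 CPM with CX-5461, 241, 209 and 212 with panobinostat, 228, 209 and 207 with both and 211, 202 and 199 with vehicle, and with panobinostat its log2 fold change was 0.12 ± 0.09, which was not called (edgeR adjusted p = 0.252). It was called there when libraries were scaled by size alone.

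**Figure D2:**
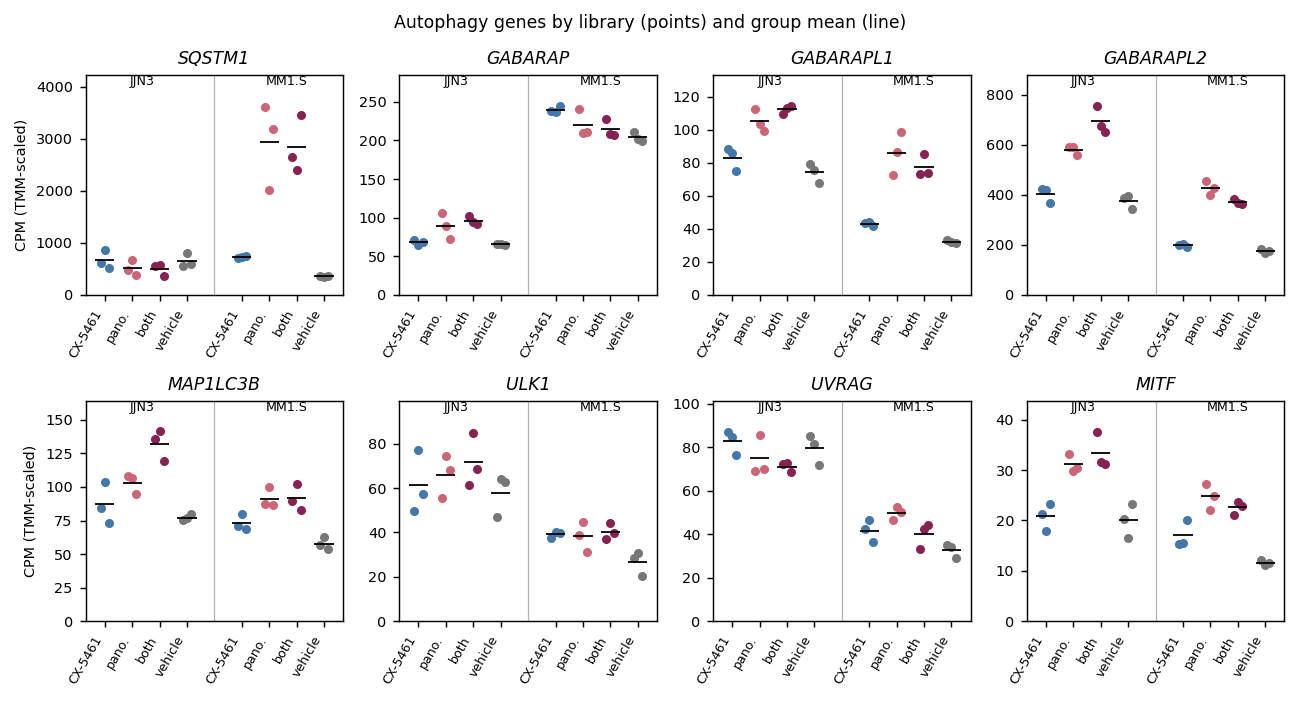
TMM-scaled CPM of 8 autophagy genes in each library (points) with the mean of each group of 3 (line), on linear axes from 0, with JJN3 left and MM1.S right of the grey line. SQSTM1 stands between 2024 and 3604 CPM in MM1.S with panobinostat, against 354 to 372 CPM with vehicle, while its JJN3 groups overlap.

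Of the genes that start an autophagosome, ULK1, ATG9B and UVRAG were higher in MM1.S, and ATG9B was the one called in JJN3. ULK1, the kinase at the head of the pathway, had 49.8, 77.2 and 57.2 CPM with CX-5461, 55.4, 74.4 and 68.3 with panobinostat, 61.6, 85.1 and 68.5 with both and 47.1, 63.9 and 63 with vehicle in JJN3. MM1.S cells had 37.4, 40.4 and 39.8 CPM with CX-5461, 38.6, 44.8 and 31.3 with panobinostat, 36.9, 44.5 and 39.6 with both and 28.3, 30.8 and 20.3 with vehicle. All MM1.S treated libraries lay above vehicle, by 0.58 ± 0.15 with CX-5461, 0.55 ± 0.15 with panobinostat and 0.63 ± 0.15 with both (edgeR adjusted p = 0.00785, 0.00232 and 0.000642). The CX-5461 call was lost when vehicle replicate 3 was left out (0.40). In JJN3 the groups overlapped, and ULK1 with both drugs passed with the replicate block but not by group means alone (0.30 ± 0.10, edgeR adjusted p = 0.0155).

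ATG9B encodes a membrane protein that supplies lipid to the growing autophagosome. It had 0.175, 1.31 and 0.97 CPM with CX-5461, 2.55, 2.37 and 1.75 with panobinostat, 3.41, 2.78 and 3.61 with both and 0.399, 0.72 and 0.455 with vehicle in JJN3. In MM1.S it had 4.2, 3.97 and 4.46 CPM with CX-5461, 5.98, 10.6 and 11 with panobinostat, 12.5, 13.3 and 16.8 with both and 1.91, 2.4 and 1.65 with vehicle. The both-drug libraries were the highest of the 4 groups in each line. With both drugs it rose by 2.59 ± 0.52 in JJN3 and 2.85 ± 0.28 in MM1.S on the log2 scale (edgeR adjusted p = 0.000831 and 1.30e-09). The JJN3 panobinostat call (2.03 ± 0.55) was lost when vehicle replicate 3 or panobinostat replicate 1 was left out (1.91 and 1.90), and the MM1.S CX-5461 call (1.10 ± 0.32) when vehicle replicate 1, vehicle replicate 3 or CX-5461 replicate 3 was left out (1.07, 0.97 and 1.04). ATG9B overlaps NOS3 on the other strand. In MM1.S, NOS3 averaged 3.65 CPM with CX-5461, 2.59 with panobinostat, 2.29 with both and 1.97 with vehicle, so with CX-5461 it was higher alongside ATG9B. In JJN3 it averaged at most 1.01 CPM, with both drugs. As the strand setting of the counting is not given in the sources used here, reads of the 2 genes cannot be told apart.

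UVRAG, a partner of Beclin 1 in the class III kinase complex, had 69.2, 85.6 and 70.2 CPM with panobinostat, 72.3, 72.8 and 68.5 with both and 85.2, 81.8 and 72.1 with vehicle in JJN3, where it was not called. The MM1.S libraries had 42.5, 46.4 and 36.3 CPM with CX-5461, 46.4, 52.6 and 50.5 with panobinostat, 33.3, 42.7 and 44.1 with both and 35.1, 34.3 and 28.9 with vehicle. The panobinostat libraries had the highest mean, and the rise was 0.62 ± 0.13 with panobinostat and 0.30 ± 0.13 with both (edgeR adjusted p = 0.000209 and 0.0469). The both-drug call was lost in 10 of 12 fits without 1 library each (0.20 to 0.30). BECN1, the gene of Beclin 1, was not called in JJN3 with both drugs by group means alone and was lower with the replicate block (-1.71 ± 0.56, edgeR adjusted p = 0.0118), at a level of at most 2 CPM. WIPI1, which reads the lipid made by that complex, was not called in MM1.S, and in JJN3 passed with the replicate block for both drugs but not by group means alone (0.38 ± 0.12, edgeR adjusted p = 0.00705). The conjugation genes ATG5, ATG7 and ATG16L1, whose products attach ATG8 proteins to lipid, gave 0 calls of 3 in every comparison of a drug with vehicle. Of all genes in JJN3, 0% were called with CX-5461, 26% with panobinostat and 39.2% with both. In MM1.S those shares were 16.7%, 69.8% and 70.2%. ATG5 averaged 8.98 ± 2.02 CPM with panobinostat and 8.92 ± 3.34 with vehicle in JJN3, and 17.4 ± 4.28 and 17.4 ± 2.51 in MM1.S (SD, n = 3 each).

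At the lysosomal membrane, LAMP2 and MCOLN1 rose and CLN3 fell. LAMP2, a main glycoprotein of the membrane and a receptor of chaperone-mediated autophagy, had 243, 236 and 181 CPM with CX-5461, 315, 306 and 275 with panobinostat, 359, 329 and 249.7 with both and 194, 221 and 166 with vehicle in JJN3. Levels in MM1.S were 174, 179 and 178 CPM with CX-5461, 539, 602 and 578 with panobinostat, 461, 479 and 463 with both and 203, 171 and 192 with vehicle. Panobinostat and both-drug libraries lay above vehicle without overlap in each line. The log2 fold change with panobinostat was 0.61 ± 0.15 in JJN3 and 1.61 ± 0.09 in MM1.S (edgeR adjusted p = 0.00697 and 8.49e-14). LAMP1, the other main membrane glycoprotein, averaged 397 ± 33.1 CPM with panobinostat and 277 ± 8.26 with vehicle in MM1.S (SD, n = 3 each), a rise of 0.53 ± 0.10 (edgeR adjusted p = 2.70e-05). In JJN3 LAMP1 was not called by group means alone and was higher with the replicate block, at 0.26 ± 0.08 with panobinostat and 0.26 ± 0.08 with both (edgeR adjusted p = 0.0106 and 0.00814).

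MCOLN1 encodes the calcium channel mucolipin 1, through which the lysosome signals to TFEB. It had 2.27, 1.87 and 2.43 CPM with CX-5461, 2.04, 2.15 and 3.1 with panobinostat, 4.13, 3.77 and 4.3 with both and 1.8, 2.34 and 2.12 with vehicle in JJN3. Its MM1.S values were 3.89, 7.09 and 7.81 CPM with CX-5461, 15.1, 12.3 and 16.9 with panobinostat, 16.1, 9.88 and 13.3 with both and 6.08, 4.37 and 6.44 with vehicle. In MM1.S the panobinostat and both-drug libraries lay above vehicle (1.38 ± 0.25 and 1.20 ± 0.25, edgeR adjusted p = 2.59e-05 and 0.000154). In JJN3 the both-drug libraries alone did (0.94 ± 0.32, edgeR adjusted p = 0.0278), and that call was lost in 5 of 12 fits without 1 library each (0.83 to 1.004). CLN3, a membrane protein mutated in juvenile Batten disease, had 32.3, 24.9 and 34.6 CPM with CX-5461, 27.3, 29.9 and 28.5 with panobinostat, 23.3, 27.6 and 27.7 with both and 29.7, 31.7 and 36.1 with vehicle in JJN3. MM1.S cells had 47.2, 46.9 and 50.4 CPM with CX-5461, 17.3, 15.1 and 13.8 with panobinostat, 14.6, 12.4 and 19 with both and 45.7, 42.1 and 53.7 with vehicle. The MM1.S panobinostat and both-drug libraries lay below every vehicle library, at -1.61 ± 0.15 and -1.62 ± 0.15 (edgeR adjusted p = 7.20e-10 and 5.53e-10). In JJN3 it was -0.20 ± 0.15 and -0.32 ± 0.15 and not called, and the both-drug value passed with the replicate block (-0.32 ± 0.13, edgeR adjusted p = 0.0356). NPC1, the cholesterol exporter of the lysosome, fell in JJN3 with both drugs, to 15.4, 21.8 and 15.5 CPM against 24, 37.8 and 28.2 with vehicle (-0.79 ± 0.23, edgeR adjusted p = 0.0116), and that call was lost when vehicle replicate 2 or both-drug replicate 1 was left out (-0.62 and -0.70). With panobinostat alone NPC1 passed in the lower direction with the replicate block (-0.40 ± 0.13, edgeR adjusted p = 0.0188).

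Cathepsin F (CTSF) had the largest called change among the proteases in both lines with panobinostat. It had 47, 49.7 and 40.6 CPM with CX-5461, 90.1, 106 and 98.8 with panobinostat, 118, 93 and 100.1 with both and 40.9, 53.8 and 41.3 with vehicle in JJN3. In MM1.S it had 19.3, 18.3 and 18.6 CPM with CX-5461, 95.2, 80.4 and 75.2 with panobinostat, 93.3, 101 and 97.7 with both and 13.9, 12 and 14 with vehicle. Panobinostat and both-drug libraries lay well above vehicle in each line, and with panobinostat the ranges of the 2 lines overlapped. The log2 fold change with panobinostat was 1.10 ± 0.15 in JJN3 and 2.65 ± 0.13 in MM1.S, and with both 1.18 ± 0.15 and 2.87 ± 0.13 (edgeR adjusted p = 5.63e-05, 2.44e-15, 9.09e-06 and 4.02e-16). With CX-5461 in MM1.S it rose by 0.48 ± 0.14, a call lost when vehicle replicate 2 or CX-5461 replicate 1 was left out (0.42 and 0.46).

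CTSA, which encodes cathepsin A, the protective protein of lysosomal sialidase, had 2.62, 1.5 and 4.85 CPM with CX-5461, 5.79, 6.45 and 6.4 with panobinostat, 5.26, 7.53 and 6.02 with both and 2.6, 3.96 and 3.79 with vehicle in JJN3. The MM1.S libraries had 12.6, 9.78 and 11 CPM with CX-5461, 12.9, 9.89 and 11.7 with panobinostat, 11.4, 8.89 and 10.03 with both and 6.95, 4.8 and 7.43 with vehicle. All 9 treated MM1.S libraries lay above vehicle, by 0.78 ± 0.21, 0.83 ± 0.21 and 0.65 ± 0.22 on the log2 scale (edgeR adjusted p = 0.0109, 0.00124 and 0.00984). The CX-5461 call was lost when vehicle replicate 2 or CX-5461 replicate 1 was left out (0.63 and 0.68), and the both-drug call when vehicle replicate 2 or both-drug replicate 1 was left out (0.46 and 0.52). In JJN3 the panobinostat and both-drug libraries also lay above vehicle, and CTSA was called there with the replicate block but not by group means alone (0.84 ± 0.30 and 0.85 ± 0.29, edgeR adjusted p = 0.023 and 0.0154). CTSZ, the carboxypeptidase cathepsin Z, varied most between libraries, with 10.2, 1.98 and 3.27 CPM with both drugs and 2.4, 1.8 and 1.37 with vehicle in JJN3, and 15.7, 45.6 and 14.7 with panobinostat, 49.1, 24.5 and 33.4 with both and 7.82, 8.73 and 20.8 with vehicle in MM1.S. The both-drug rise in JJN3 (1.52 ± 0.52) was lost when vehicle replicate 2, vehicle replicate 3 or both-drug replicate 1 was left out (1.48, 1.32 and 0.53), and that in MM1.S (1.49 ± 0.55) in 7 of 12 fits without 1 library each (1.17 to 1.51).

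The remaining proteases moved by less than CTSF. TPP1, tripeptidyl peptidase 1, averaged 75.4 ± 12.9 CPM with panobinostat, 66.5 ± 5.16 with both and 47.8 ± 2.89 with vehicle in MM1.S (SD, n = 3 each), a rise of 0.67 ± 0.12 and 0.49 ± 0.12 (edgeR adjusted p = 3.38e-05 and 0.00105). In JJN3 TPP1 passed with the replicate block but not by group means alone (0.38 ± 0.15 and 0.38 ± 0.15, edgeR adjusted p = 0.0446 and 0.036). CTSB, cathepsin B, was higher in JJN3 with panobinostat (0.42 ± 0.14), a call lost in 4 of 12 fits without 1 library each (0.33 to 0.41), and in MM1.S with CX-5461 (0.30 ± 0.10), a call lost in 8 of 12 fits without 1 library each (0.19 to 0.34). CTSD, the aspartic protease cathepsin D, was lower in MM1.S with panobinostat (-0.31 ± 0.11, edgeR adjusted p = 0.0124), and that call was lost when panobinostat replicate 2 or panobinostat replicate 3 was left out (-0.25 and -0.24). CTSL averaged 21.9 ± 1.6 CPM with both and 14.4 ± 3.97 with vehicle in MM1.S (SD, n = 3 each), a rise of 0.60 ± 0.17 (edgeR adjusted p = 0.00364) whose call was lost when vehicle replicate 2 was left out (0.37).

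Among the sugar- and sulfate-removing enzymes more members were lower than higher. In MM1.S, with panobinostat and again with both drugs, 2 of 6 were higher (33.3%) and 4 lower (66.7%), against 36.9% and 32.9% of all genes with panobinostat and 37% and 33.2% with both. In JJN3 0 of 6 were higher with either, against 15% and 21% of all genes, while 1 was lower with panobinostat and 3 with both, against 10.9% and 18.2%. GAA, the acid glucosidase that breaks down glycogen and is lost in Pompe disease, had 72.5, 76.7 and 75 CPM with CX-5461, 71.5, 95.3 and 75.3 with panobinostat, 60.6, 68 and 73.8 with both and 52.1, 73.3 and 66.6 with vehicle in JJN3. Levels in MM1.S were 4.67, 4.96 and 4.74 CPM with CX-5461, 9.56, 9.55 and 8.75 with panobinostat, 10.1, 9.55 and 12.6 with both and 1.74, 3.28 and 1.49 with vehicle. All treated MM1.S libraries lay above vehicle, by 1.19 ± 0.29 with CX-5461, 2.15 ± 0.27 with panobinostat and 2.36 ± 0.27 with both (edgeR adjusted p = 0.00565, 1.69e-07 and 2.48e-08). The CX-5461 call was lost when vehicle replicate 3 was left out (0.96). In JJN3 it was 0.32 ± 0.15 with panobinostat and 0.07 ± 0.15 with both, not called, and the panobinostat value passed with the replicate block (edgeR adjusted p = 0.0144).

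NAGLU, an enzyme of heparan sulfate breakdown, fell in both lines. It had 23.4, 24 and 23.6 CPM with CX-5461, 23.8, 16.1 and 17.1 with panobinostat, 12.9, 16.5 and 13.1 with both and 27.9, 24.3 and 27.6 with vehicle in JJN3. Its MM1.S values were 44.7, 37.7 and 39.6 CPM with CX-5461, 15.3, 14.9 and 12.7 with panobinostat, 16.5, 14.3 and 17.5 with both and 34.6, 43.9 and 35.3 with vehicle. Panobinostat and both-drug libraries lay below vehicle in each line. The log2 fold change with both drugs was -0.92 ± 0.17 in JJN3 and -1.22 ± 0.14 in MM1.S (edgeR adjusted p = 0.000469 and 4.03e-08). With panobinostat it was -0.49 ± 0.17 in JJN3, a call lost in 5 of 12 fits without 1 library each (-0.50 to -0.41), and -1.39 ± 0.15 in MM1.S (edgeR adjusted p = 6.41e-09). SGSH, a sulfatase of the same pathway, was lower with both drugs in JJN3 (-0.85 ± 0.23) and in MM1.S (-1.04 ± 0.17), and with panobinostat in MM1.S (-0.69 ± 0.17). HEXA, a subunit of hexosaminidase that is lost in Tay-Sachs disease, was lower with both drugs in JJN3 (-0.41 ± 0.15, a call lost in 4 of 12 fits without 1 library each (-0.39 to -0.36)) and in MM1.S (-0.90 ± 0.11), and with panobinostat in MM1.S (-0.65 ± 0.11). GUSB, the beta-glucuronidase, was lower in MM1.S with panobinostat (-0.67 ± 0.09) and both (-0.64 ± 0.09). It averaged 136 ± 10.4 and 138 ± 2.02 CPM there, against 217 ± 4.09 with vehicle (SD, n = 3 each). GLA, the alpha-galactosidase lost in Fabry disease, had 23.7, 22.6 and 20.6 CPM with panobinostat, 23.9, 26.4 and 27.3 with both and 23.6, 16.9 and 19.6 with vehicle in JJN3. MM1.S cells had 51.6, 32.3 and 43.4 CPM with panobinostat, 62.6, 52.5 and 70.6 with both and 29.5, 29 and 30.2 with vehicle, and the both-drug libraries were the highest. The MM1.S rise was 0.52 ± 0.15 with panobinostat, a call lost when panobinostat replicate 1 was left out (0.33), and 1.07 ± 0.15 with both (edgeR adjusted p = 5.65e-07). In JJN3 GLA with both drugs passed with the replicate block but not by group means alone (0.36 ± 0.14, edgeR adjusted p = 0.034).

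Of the genes that handle lipids, PSAP and ASAH1 rose in MM1.S. PSAP encodes prosaposin, the precursor of the saposins that present sphingolipids to enzymes. It had 1211, 1339 and 978 CPM with CX-5461, 1570.1, 1696 and 1353 with panobinostat, 1532, 1529.6 and 1029 with both and 1211, 1326 and 984 with vehicle in JJN3. In MM1.S it had 1894, 1801 and 1883 CPM with CX-5461, 3902, 3394 and 3479 with panobinostat, 3227, 3218 and 3315 with both and 1694, 1858 and 1619.9 with vehicle. The MM1.S panobinostat and both-drug libraries lay above vehicle without overlap, by 1.07 ± 0.09 and 0.92 ± 0.09 (edgeR adjusted p = 7.78e-11 and 9.91e-10). In JJN3 PSAP was 0.38 ± 0.17 and 0.21 ± 0.17, not called, and passed with the replicate block (0.38 ± 0.07 and 0.20 ± 0.07, edgeR adjusted p = 9.87e-05 and 0.0238). ASAH1, the acid ceramidase, had 23.3, 31.4 and 20.4 CPM with panobinostat, 26.9, 30.1 and 21 with both and 24.2, 28.5 and 20.5 with vehicle in JJN3, where the groups overlapped. The MM1.S libraries had 77.5, 77.8 and 76.7 CPM with panobinostat, 71.4, 77.2 and 72 with both and 36.5, 31.4 and 37.8 with vehicle, a rise of 1.14 ± 0.11 and 1.06 ± 0.11 (edgeR adjusted p = 1.08e-09 and 3.24e-09). NPC2, which hands cholesterol to NPC1, was higher in JJN3 with panobinostat (0.62 ± 0.21) and both (0.67 ± 0.21). The first call was lost in 7 of 12 fits without 1 library each (0.45 to 0.62) and the second in 4 of 12 fits without 1 library each (0.50 to 0.67). In MM1.S its rise with panobinostat was 0.26 ± 0.10, a call lost when vehicle replicate 2, vehicle replicate 3 or panobinostat replicate 1 was left out (0.23, 0.20 and 0.17).

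Most of the 6 members that belong to the proton pump rose in both lines. None of them was called lower with panobinostat or both drugs, against 10.9% and 18.2% of all genes in JJN3 and 32.9% and 33.2% in MM1.S. Of 6 tested, 4 were higher in JJN3 with panobinostat and 4 with both, against 15% and 21% of all genes. In MM1.S 4 were higher with panobinostat and 5 with both, against 36.9% and 37% of all genes. ATP6V0D1, a subunit of the membrane sector, had 30.2, 25.9 and 26 CPM with CX-5461, 55.9, 37.4 and 39.2 with panobinostat, 59.8, 47.2 and 40.6 with both and 21, 18.4 and 21.5 with vehicle in JJN3. Levels in MM1.S were 48.6, 43.1 and 50.1 CPM with CX-5461, 113, 73.9 and 73 with panobinostat, 95.9, 90.1 and 92.8 with both and 36.3, 46.5 and 44.4 with vehicle. Panobinostat and both-drug libraries lay above vehicle in each line, with a log2 fold change with panobinostat of 1.11 ± 0.18 in JJN3 and 1.04 ± 0.14 in MM1.S (edgeR adjusted p = 0.000253 and 5.96e-07). ATP6V1H, a regulatory subunit of the cytosolic sector, had 31.3, 31.1 and 26.5 CPM with CX-5461, 35.6, 34.2 and 34 with panobinostat, 51.8, 39.5 and 43.9 with both and 24.4, 22.9 and 17.7 with vehicle in JJN3. Its MM1.S values were 18.1, 19.99 and 19.7 CPM with CX-5461, 22.5, 21.3 and 24.6 with panobinostat, 29.8, 26.3 and 29.5 with both and 15.5, 14.2 and 14.7 with vehicle. The both-drug libraries were the highest of the 4 groups in each line, by 1.06 ± 0.16 in JJN3 and 0.95 ± 0.14 in MM1.S against vehicle (edgeR adjusted p = 5.00e-05 and 1.36e-06).

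ATP6V1A, the catalytic subunit that splits ATP, had 135, 116 and 104 CPM with CX-5461, 144, 147 and 139 with panobinostat, 216, 191 and 171 with both and 104, 113 and 83 with vehicle in JJN3. MM1.S cells had 126, 124 and 126 CPM with CX-5461, 228, 264 and 247 with panobinostat, 206, 230.1 and 188 with both and 138, 112 and 128 with vehicle. With both drugs it rose by 0.93 ± 0.14 in JJN3 and 0.73 ± 0.10 in MM1.S (edgeR adjusted p = 4.70e-05 and 7.73e-07). The JJN3 call with panobinostat (0.51 ± 0.14) was lost when vehicle replicate 3 was left out (0.38). ATP6V1B2, the partner of the catalytic subunit, rose with both drugs by 0.72 ± 0.13 in JJN3 and 0.37 ± 0.09 in MM1.S (edgeR adjusted p = 0.000439 and 0.000795). With panobinostat it rose by 0.29 ± 0.09 in MM1.S, and in JJN3 passed with the replicate block but not by group means alone (0.25 ± 0.09, edgeR adjusted p = 0.0324). ATP6V0E1, a small membrane-sector subunit, rose in JJN3 with panobinostat (0.39 ± 0.13), a call lost in 4 of 12 fits without 1 library each (0.29 to 0.41). With both drugs in JJN3 it passed with the replicate block but not by group means alone (0.31 ± 0.09, edgeR adjusted p = 0.00707). ATP6AP1, an accessory protein of the pump, rose in MM1.S with both drugs (0.30 ± 0.13), a call lost in 7 of 12 fits without 1 library each (0.17 to 0.29).

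**Figure D3:**
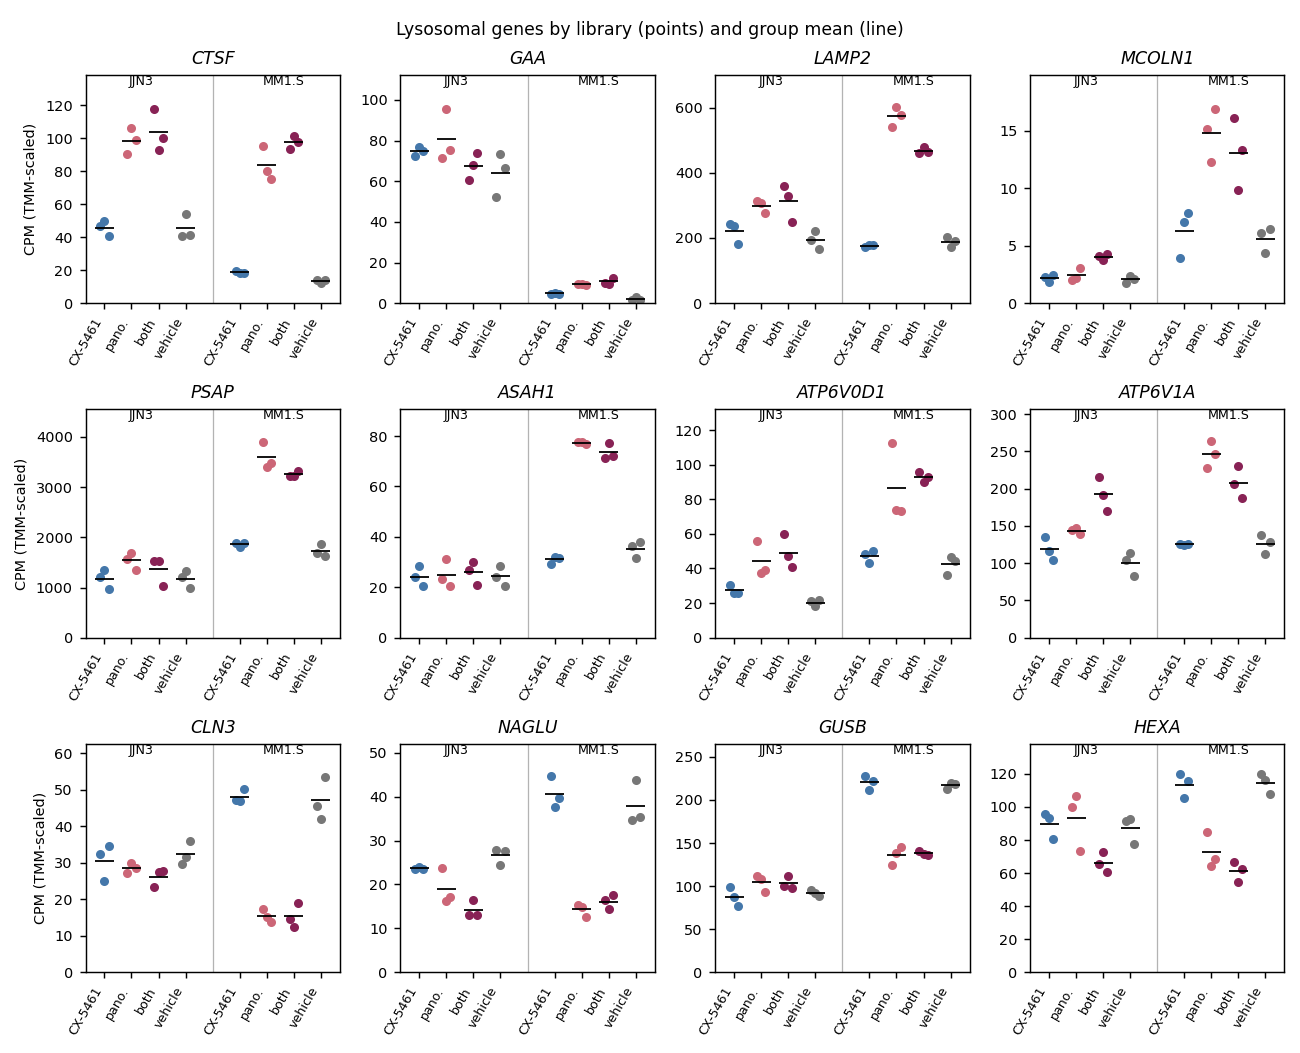
TMM-scaled CPM of 12 lysosomal genes in each library (points) with the mean of each group of 3 (line), on linear axes from 0, with JJN3 left and MM1.S right of the grey line. The top 2 rows hold genes that were higher with panobinostat in MM1.S, and the bottom row holds CLN3, NAGLU, GUSB and HEXA, which were lower there; GAA with vehicle stands between 52.1 and 73.3 CPM in JJN3, against 1.49 to 3.28 CPM in MM1.S.

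Members with and without CACGTG in their promoter were set side by side as a description. In MM1.S with panobinostat, 8 tested members held the motif, of which 6 were higher and 2 lower (CLN3 and CTSD), with a median log2 fold change of 0.93. Among 24 tested members with a window and no motif, 12 were higher and 1 lower (GUSB), with a median of 0.37, and among 12 with no window in the table, 7 were higher and 3 lower, with a median of 0.45. In JJN3 with panobinostat, 2 of the 8 with the motif (CTSF and ATP6V0D1) were higher and 0 lower, with a median of 0.29. Of the 24 without it, 8 were higher and 0 lower, with a median of 0.17, and of the 12 with no window 5 were higher and 1 lower, with a median of 0.32. All genes tested were higher in 36.9% and lower in 32.9% of cases in MM1.S, and in 15% and 10.9% in JJN3. The members with the motif are all lysosomal, while those with a window and no motif include most of the autophagy genes. Motif and role were not separated. SQSTM1, GABARAPL1 and GABARAPL2, which rose in MM1.S, had no CACGTG in their windows.

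Adding CX-5461 to panobinostat changed few members by group means, and more in JJN3 with the replicate block. Both drugs against panobinostat in MM1.S called 1 of 44 members, GLA, higher (2.27%), against 2.44% higher and 1.65% lower of all genes (4.08% in either direction). With library size alone those shares were 3.33% and 1.25%, with the same count of 1 member. GLA had 62.6, 52.5 and 70.6 CPM with both and 51.6, 32.3 and 43.4 with panobinostat (0.55 ± 0.14, edgeR adjusted p = 0.0278), and the call was lost in 4 of 12 fits without 1 library each (0.38 to 0.57). In JJN3 edgeR called 0 of 44, against 0.903% of all genes (0.184% higher and 0.719% lower, or 0.517% and 0.491% with library size alone), with 10 at an unadjusted p under 0.05, and DESeq2 and limma-voom called 0. With the replicate block 9 of 44 were called in JJN3 (6 higher, 3 lower), against 5.78% and 6.48% of all genes. The 6 higher were GABARAPL2 (0.26 ± 0.08), MAP1LC3B (0.36 ± 0.10), CTSZ (1.90 ± 0.40), ATP6V1H (0.39 ± 0.12), ATP6V1A (0.42 ± 0.09) and ATP6V1B2 (0.48 ± 0.09). The 3 lower were CTSB (-0.28 ± 0.09), HEXA (-0.48 ± 0.10) and SGSH (-0.57 ± 0.13).

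The both-drug change was also set against the sum of the single-drug changes on the log2 scale. In MM1.S, 4 of 44 members fell short of that sum (9.09%) and 0 exceeded it, against 3.65% and 1.87% of all genes (5.52% in either direction). They were SQSTM1 (-1.05 ± 0.24), GABARAPL1 (-0.56 ± 0.17), UVRAG (-0.67 ± 0.18) and CTSA (-0.97 ± 0.29), with edgeR adjusted p of 0.0222, 0.0444, 0.0318 and 0.0487. SQSTM1 averaged 2839.7 ± 557 CPM with both, 2939 ± 819 with panobinostat, 729 ± 21.5 with CX-5461 and, in vehicle libraries, 365 ± 9.35 (SD, n = 3 each), so the both-drug level was close to that with panobinostat alone. The count of 4 was between 0 and 3 when 1 library was left out, and 0 without vehicle replicate 3, panobinostat replicate 3 or both-drug replicate 1. Of all genes, 3.89%, 3.37% and 3.4% were called without those libraries in turn. In JJN3 edgeR called 0 of 44, against 0% of all genes, with 4 at an unadjusted p under 0.05, and DESeq2, limma-voom and the replicate block called 0.

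The effect of panobinostat differed between JJN3 and MM1.S for 17 of 45 members, and for 33.3% of all genes tested. The difference was tested in 1 fit of all 24 libraries as the JJN3 effect minus the MM1.S effect. It was above 0 for 6 and below 0 for 11 (13.3% and 24.4%), against 18.9% and 14.4% of all genes. For both drugs it was above 0 for 6 and below 0 for 10 (13.3% and 22.2%), against 18.8% and 14% of all genes. The balance over all genes depended on the scaling. With library size alone, panobinostat gave 5 members above and 14 below 0, against 15.5% and 17.6% of all genes, and with RLE scaling, 5 above and 11 below, against 17.1% and 16.2%. The median difference of the members was -0.24 with panobinostat and -0.13 with both, while that of all genes was 0.03 and 0.04. SQSTM1 differed most, by -3.37 ± 0.34 with panobinostat and -3.36 ± 0.34 with both (edgeR adjusted p = 1.48e-07 and 1.52e-07). In vehicle it stood at 558 to 806 CPM in JJN3 and 354 to 372 in MM1.S, and with panobinostat at 387 to 674 in JJN3 and 2024 to 3604 in MM1.S, so the order of the lines was the other way round.

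Below 0 with panobinostat were also GAA (-1.81 ± 0.29), CTSF (-1.53 ± 0.19), MCOLN1 (-1.17 ± 0.44), ASAH1 (-1.09 ± 0.22), LAMP2 (-0.98 ± 0.18), GABARAPL1 (-0.91 ± 0.17), UVRAG (-0.70 ± 0.18), PSAP (-0.67 ± 0.19), GABARAPL2 (-0.65 ± 0.14) and ATP6V1A (-0.44 ± 0.17). CTSF was called higher in each line, so there the difference is one of size. GAA and CTSF already stood higher in JJN3 than in MM1.S with vehicle. Above 0 were CLN3 (1.43 ± 0.22), NAGLU (0.92 ± 0.22), GUSB (0.86 ± 0.15), HEXA (0.76 ± 0.19), OPTN (0.67 ± 0.15) and CTSD (0.48 ± 0.17). Of these, OPTN was raised in JJN3, and the other 5 were lowered in MM1.S. The call was lost for MCOLN1 in 6 of 24 fits without 1 library each (-1.25 to -1.04), for ATP6V1A in 5 of 24 fits without 1 library each (-0.46 to -0.40) and for CTSD in 19 of 24 fits without 1 library each (0.32 to 0.47). ATP6V0D1, ATP6V1H, MITF and ATG9B, which were higher with panobinostat in each line, were not called for a difference.

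**Figure D4:**
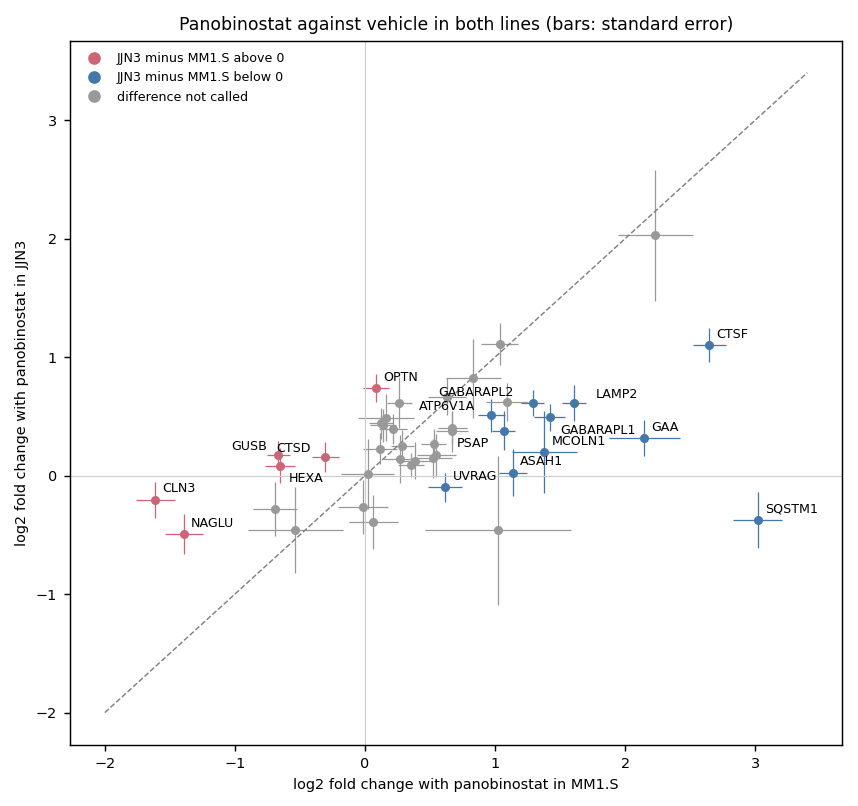
Log2 fold change with panobinostat against vehicle in JJN3 (vertical axis) and MM1.S (horizontal axis) for each member tested in both, with standard errors as bars and equality as the dashed line. Blue points, where JJN3 minus MM1.S is called below 0, include SQSTM1 at -0.37 in JJN3 and 3.02 in MM1.S, and red points, where it is called above 0, include CLN3 at -0.20 in JJN3 and -1.61 in MM1.S.

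With both drugs, GAA (-2.28 ± 0.29), CTSF (-1.67 ± 0.19), ASAH1 (-0.96 ± 0.22), PSAP (-0.70 ± 0.19), GABARAPL1 (-0.66 ± 0.17) and LAMP2 (-0.62 ± 0.18) were again below 0, next to NPC1 (-0.97 ± 0.30), GLA (-0.69 ± 0.22) and BECN1 (-2.15 ± 0.83). CLN3 (1.31 ± 0.22), OPTN (0.85 ± 0.15), GUSB (0.82 ± 0.15) and HEXA (0.51 ± 0.19) were again above 0, next to NPC2 (0.67 ± 0.24) and GABARAP (0.49 ± 0.16). BECN1 rests on at most 2 CPM, and its call was lost in 8 of 24 fits without 1 library each (-2.28 to -1.82). Calls were also lost for HEXA in 20 of 24 fits without 1 library each (0.35 to 0.52), for NPC2 in 16 of 24 fits without 1 library each (0.43 to 0.67) and for GABARAP in 5 of 24 fits without 1 library each (0.39 to 0.42). The differences for panobinostat and for both drugs share the vehicle libraries.

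Before any drug the lines differed widely in these genes. In vehicle, 14 of 45 members were higher and 25 lower in JJN3 than in MM1.S (31.1% and 55.6%), against 30.2% and 33.5% of all genes (63.7% in either direction). The median log2 fold change of the members was -0.39, while that of all genes was -0.04. GAA stood farthest above, with 52.1, 73.3 and 66.6 CPM in JJN3 and 1.74, 3.28 and 1.49 in MM1.S (4.93 ± 0.21, edgeR adjusted p = 7.77e-19). CTSF (1.76 ± 0.15), UVRAG (1.28 ± 0.13), GABARAPL1 (1.20 ± 0.12), NPC1 (1.18 ± 0.21), ULK1 (1.14 ± 0.18), GABARAPL2 (1.09 ± 0.10) and SQSTM1 (0.85 ± 0.24) were also higher in JJN3. CTSL stood farthest below, with 0 counts in the 3 JJN3 vehicle libraries and 242 counts in those of MM1.S. Taking 3 counts over the group as the limit of a count of 0, CTSL was at least 84.4-fold lower in JJN3.

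Members of several roles, many lysosomal enzymes among them, were lower in JJN3 with vehicle, while the enzymes GAA, CTSF and SGSH were higher. OPTN had a mean of 75 ± 1.22 CPM in JJN3 and 237 ± 14 in MM1.S (-1.66 ± 0.11), and GABARAP 65.4 ± 0.91 and 204 ± 6.56 (-1.64 ± 0.11, SD, n = 3 each). TPP1 (-1.55 ± 0.15), MCOLN1 (-1.43 ± 0.31), GUSB (-1.24 ± 0.11), CTSD (-1.06 ± 0.12) and CTSZ (-2.78 ± 0.66) were lower as well, as were 5 of 6 V-ATPase members, led by ATP6V0E1 (-1.13 ± 0.12) and ATP6V0D1 (-1.06 ± 0.18). The sixth, ATP6V1H, was higher (0.54 ± 0.15). LAMP2, NPC2, WIPI1, TFEB, ATG7 and BECN1 were not called, and LAMP2 averaged 194 ± 27.8 CPM in JJN3 and 189 ± 16.1 in MM1.S (SD, n = 3 each). Smaller calls were lost more easily, as for ATG16L1 in 22 of 24 fits without 1 library each (-0.51 to -0.30), for ATP6AP1 in 18 of 24 fits without 1 library each (-0.35 to -0.11) and for ATP6V1A in 14 of 24 fits without 1 library each (-0.32 to -0.14).

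**Figure D5:**
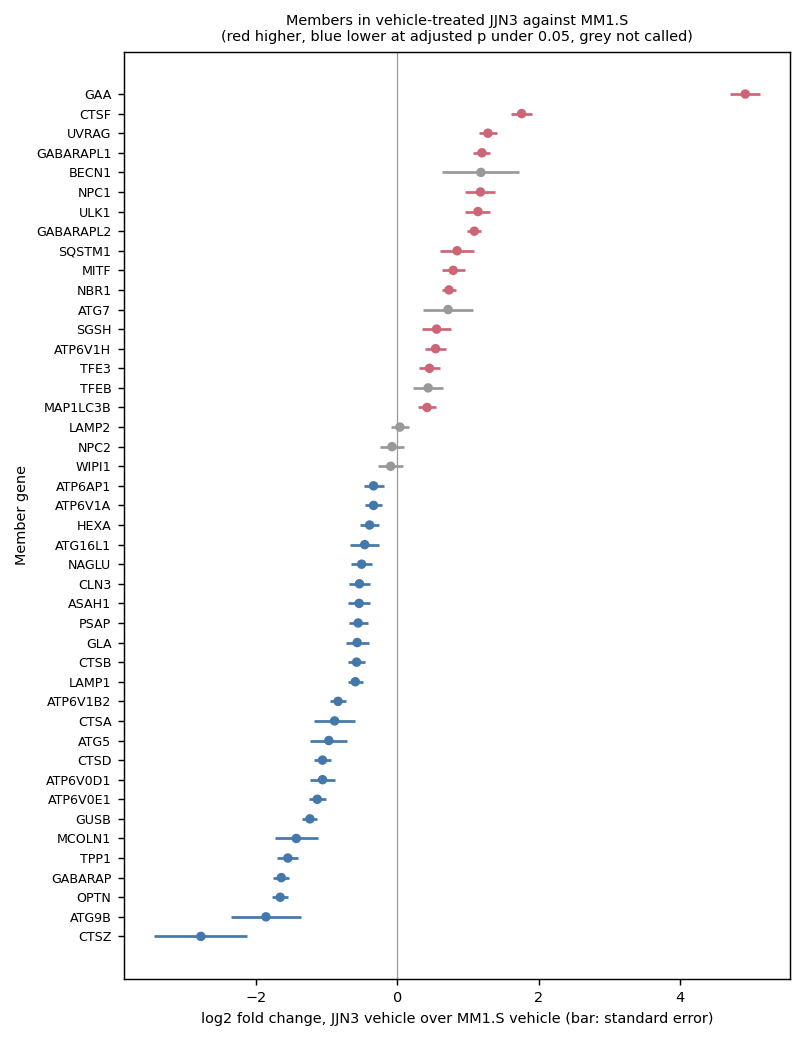
Log2 fold change of vehicle-treated JJN3 over vehicle-treated MM1.S for 44 members (rows, ordered by value) with standard errors as bars, without CTSL, which had no count in JJN3. Red marks members higher and blue members lower at an edgeR adjusted p under 0.05, and grey those not called; GAA lies farthest right at 4.93 and CTSZ farthest left at -2.78.

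Other genes of the pathway, from lists outside the 47, moved in both directions. They were read from the fits with group means alone, and the replicate block and other settings were not read for them. With the block, both drugs in JJN3 called 27.6% of all genes higher and 25.9% lower. Of 20 other core autophagy genes tested in MM1.S, 12 were higher and 3 lower with both drugs, and of 19 tested in JJN3, 6 were higher and 0 lower. The background for these counts is 21% of all genes higher and 18.2% lower in JJN3, and 37% and 33.2% in MM1.S. The genes named are among the largest called rises and falls of their list with both drugs in MM1.S. PIK3C3, the class III kinase, rose by 0.61 ± 0.18 in JJN3 and 1.52 ± 0.14 in MM1.S, and ATG2A, which moves lipid into the autophagosome, by 1.98 ± 0.11 in MM1.S. ULK2, a relative of ULK1, fell there (-0.98 ± 0.28). Of 9 other autophagy receptors, 3 were higher and 1 lower in JJN3 and 5 higher and 2 lower in MM1.S, led by RETREG1, a receptor for the endoplasmic reticulum (2.56 ± 0.63 in JJN3 and 2.17 ± 0.20 in MM1.S). BNIP3L, a receptor for mitochondria, rose by 1.52 ± 0.33 in MM1.S. Of 12 genes of autophagosome fusion, 4 were higher and 1 lower in JJN3 and 8 higher and 1 lower in MM1.S. The member that fell was VAMP8, a fusion protein of late endosomes, at -1.14 ± 0.14 in JJN3 and -1.24 ± 0.14 in MM1.S.

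Genes that control TFEB through mTORC1 gave 3 higher and 3 lower of 18 in JJN3 with both drugs, and 7 higher and 5 lower of 18 in MM1.S. For each list in this paragraph the background is 21% of all genes higher and 18.2% lower in JJN3, and 37% and 33.2% in MM1.S. Genes are named by the same rule of largest called changes. DEPTOR, an inhibitor of mTOR that is high in some myelomas, averaged 26.4 CPM with both and 84.3 with vehicle in JJN3 (-1.68 ± 0.29), and 18.6 and 395 CPM in MM1.S (-4.39 ± 0.16). RRAGA, one of the Rag GTPases, rose by 0.69 ± 0.11 in JJN3 and 1.30 ± 0.14 in MM1.S, and RPTOR, the scaffold of mTORC1, fell there (-1.30 ± 0.29). Of 36 other lysosomal genes tested in each line, 10 were higher and 9 lower in JJN3 and 16 higher and 11 lower in MM1.S with both drugs. LIPA, the acid lipase, rose by 1.33 ± 0.18 in JJN3 and 1.96 ± 0.11 in MM1.S, and ARSB, a sulfatase, fell (-1.21 ± 0.38 and -3.35 ± 0.28), as did LAPTM5, a membrane protein of blood cells (-0.74 ± 0.16 and -2.29 ± 0.11). Of 11 other V-ATPase genes, 6 were higher and 1 lower in JJN3 and 5 higher and 3 lower in MM1.S.

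CX-5461 raised several genes that link p53 to autophagy in MM1.S. Out of 7, 0 were called with CX-5461 in JJN3 by edgeR with group means, with 0 at an unadjusted p under 0.05, against 0% of all genes. With the replicate block, which was not read for these 7, 1.38% of all genes were called. In MM1.S 4 were higher and 0 lower (57.1% and 0%), against 9.68% and 7.06% of all genes. DRAM1, a lysosomal membrane protein induced by p53, averaged 10.6 CPM with CX-5461 and 11.1 with vehicle in JJN3, and 23.5 and 4.93 CPM in MM1.S, where it rose by 2.24 ± 0.23 (edgeR adjusted p = 9.78e-08). TIGAR, a p53 target that acts on sugar metabolism, rose by 1.81 ± 0.18 and SESN1, a brake on mTORC1, by 0.93 ± 0.14 in MM1.S. The JJN3 effect minus the MM1.S effect was -2.32 ± 0.34 for DRAM1 and -1.84 ± 0.34 for TIGAR (edgeR adjusted p = 8.15e-05 and 0.00227), against 1.03% of all genes called below 0.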

How the data were processed

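Gene counts from 3′ RNA sequencing of 24 libraries were used as deposited, in 1 table per line, with 28395 NCBI Gene IDs in each. The values are raw counts of reads per gene, made by the authors. Per the submitters' processing notes, HISAT2 2.2.1, featureCounts 2.0.1 and limma 3.50.0 were used, with hg19 and GRCh37 as builds. Not given in the sources used here are the annotation, the strand setting and the treatment of reads that match several genes. Symbols and promoter windows came from RefSeq tables (GRCh38.p14), which matched 27745 IDs, and no coordinate of the deposited files was used.

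Each line was fitted with edgeR 4.0.16 in R 4.3.3 (TMM scaling, filterByExpr, robust quasi-likelihood F test, 4 group means, Benjamini-Hochberg adjustment over all genes tested, threshold 0.05). Differences between lines came from 1 fit of all 24 libraries with 8 group means. With 4751893 to 7305069 counts a library and 3 libraries a group, common biological coefficients of variation were 0.154 in JJN3 and 0.107 in MM1.S. Alternatives were other scalings, no filter, DESeq2 1.42.0, limma-voom 3.58.1, a replicate block, and leaving out libraries. Those for members outside the 27 chosen by rule, and for differences between lines, were added after the data were seen. The fits were tested on simulated data.

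The labels number the replicates 1 to 3 in every group. In JJN3 same-numbered libraries correlated in their deviations from group means at 0.197 to 0.486 in 18 of 18 pairs, so the number was taken as a pairing. In MM1.S only 6 of 18 pairs passed 0.1. The members and the other gene lists were chosen with earlier results of these data known. Chosen for values by library were the 3 transcription factors, SQSTM1, the ATG8 family (MAP1LC3A, too low to test, by its highest value), and up to 3 members of each role with the largest called change with both drugs in MM1.S. Other members are named with their calls.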

Additional observations from a re-analysis of the deposited data

Results flagged for a closer look

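The change against vehicle differed between JJN3 and MM1.S in 35 tests, each a test of the difference itself in 1 edgeR fit of all libraries, on the log2 scale as JJN3 minus MM1.S. Of 45 members tested, 6 were above and 11 below 0 with panobinostat, while 33.3% of all genes were called in either direction. With both drugs 6 were above and 10 below 0, while 32.8% of all genes were called. With CX-5461 that share was 1.32%. With panobinostat it was below 0 for SQSTM1 (-3.37), GAA (-1.81), CTSF (-1.53), MCOLN1 (-1.17), ASAH1 (-1.09), LAMP2 (-0.98), GABARAPL1 (-0.91), UVRAG (-0.70), PSAP (-0.67), GABARAPL2 (-0.65) and ATP6V1A (-0.44). It was above 0 for CLN3 (1.43), NAGLU (0.92), GUSB (0.86), HEXA (0.76), OPTN (0.67) and CTSD (0.48). With both drugs it was below 0 for SQSTM1 (-3.36), GAA (-2.28), BECN1 (-2.15), CTSF (-1.67), NPC1 (-0.97), ASAH1 (-0.96), PSAP (-0.70), GLA (-0.69), GABARAPL1 (-0.66) and LAMP2 (-0.62). It was above 0 for CLN3 (1.31), OPTN (0.85), GUSB (0.82), NPC2 (0.67), HEXA (0.51) and GABARAP (0.49). Both sets use the same vehicle libraries. With CX-5461, outside the 47 genes, it was below 0 for DRAM1 (-2.32) and TIGAR (-1.84). The smallest edgeR adjusted p among the 35 was 4.20e-08 and the largest 0.048. Line, p53 status and count table cannot be told apart in these differences.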

How the results depend on the processing

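The numbers of members called in 14 comparisons were recomputed under other settings, as were 204 log2 fold changes of single members, of which 186 were called. For single members, 4088 of the recomputed values kept direction and side of the threshold, 360 lost the call, 18 gained it and 7 changed sign, over 18 to 29 settings each. No called value changed sign. The 7 were uncalled values near 0. TFEB in MM1.S with both drugs was 0.032 with library size alone and -0.36 to 0.17 when 1 library was left out (0.17 without vehicle replicate 2), and with panobinostat -0.055 to 0.48 (-0.055 without vehicle replicate 3). TFE3 in JJN3 was 0.027 with both drugs under library size alone, and -0.025 to 0.22 with panobinostat when 1 library was left out (-0.025 without panobinostat replicate 1). GAA in JJN3 with both drugs was -0.086 to 0.15, with -0.086 without vehicle replicate 1 and -0.015 without both-drug replicate 3.

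Scaling by library size alone raised the median of all genes in MM1.S by 0.14 with panobinostat and 0.17 with both drugs. The JJN3 median rose by 0.11 with both. Members called with CX-5461 in MM1.S then came to 16, against 17.1% of all genes. Those short of additivity in MM1.S came to 7, against 5.69% of all genes called for additivity. With RLE scaling and with DESeq2 the additivity count in MM1.S was 2, against 5.59% and 5.64% of all genes. For both drugs against panobinostat in MM1.S, DESeq2 and limma-voom each called 2, against 4.44% and 3.93% of all genes. With no filter on low counts, both drugs against panobinostat in JJN3 called 3, and the CX-5461 difference between lines called 1. The shares of all genes were 2.34% and 1.47%. Without the 4 JJN3 libraries of replicate 2, panobinostat in JJN3 called 10, against 25.4% of all genes. The causes were not tested.

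With the replicate block, which the correlations bear out in JJN3, panobinostat called 25, both drugs 31 and both drugs against panobinostat 9 members in JJN3, and the CX-5461 difference called 1. Of all genes it called 41.9%, 53.5%, 12.3% and 4.52% in the same order. In MM1.S, where the samples share only a number, the block called 9 for additivity and 2 for both drugs against panobinostat. The shares of all genes were 8.5% and 7.69%. Other counts stayed within 1.5 times. No block was run for vehicle JJN3 against MM1.S, since a number pairs libraries within 1 line.

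Leaving out each library in turn gave 0 to 0 called with CX-5461, 8 to 17 with panobinostat, 15 to 21 with both, 0 to 1 for both against panobinostat and 0 to 0 for additivity in JJN3. In MM1.S it gave 3 to 14, 29 to 32, 27 to 31, 0 to 3 and 0 to 3 in the same order. All genes called in the JJN3 fits ranged from 16.8 to 26.1% with panobinostat and 30.3 to 39.9% with both. The MM1.S ranges were 11 to 19.5% with CX-5461, 65.1 to 69.6% with panobinostat and 65.2 to 71% with both. They were 1.42 to 9.55% for both against panobinostat and 3.37 to 8.46% for additivity. For JJN3 minus MM1.S, leaving out 1 library gave 0 to 1 with CX-5461, 14 to 18 with panobinostat and 12 to 17 with both, and 34 to 39 for vehicle. With all 24 libraries the shares of all genes were 1.32%, 33.3%, 32.8% and 63.7%. BECN1, MAP1LC3A and NEU1 had few or no counts, and those of MCOLN1, CTSA, CTSZ and ATG9B are low, so changes there are less precise.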
